A study of Homo sapiens with 6 samples.

Results

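The 10 genes described here encode transcription factors of the erythroid and megakaryocytic lineages, namely GATA1, GATA2, KLF1, TAL1, LMO2, NFE2, GFI1B, ZFPM1, BCL11A and MYB. They were taken by name from the deposited count table, which lists 24960 genes, and all 10 had a row. RNA came from K562 cells, an established erythroleukemia-type line from a patient with chronic myeloid leukemia (CML) that carries the BCR::ABL fusion, so the fusion was shared by both groups. The control group had 3 libraries without hyperoside, and the hyperoside group had 3 libraries from cells given hyperoside (2 mM), a flavonol glycoside of plant origin. The sources used here give neither the vehicle of the controls nor the duration of treatment before RNA extraction. They also do not say that replicates were separate cultures, so the p-values measure the spread between these libraries, which may be technical.

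Red cells and platelets arise from a common progenitor in the bone marrow, and a small set of DNA-binding proteins directs that path. GATA2 acts in stem and progenitor cells and is replaced on shared sites by GATA1 as cells mature, with ZFPM1 (FOG1) as the cofactor of the GATA zinc fingers. TAL1 binds the E-box beside a GATA site, and LMO2 bridges it to GATA1. KLF1 activates erythroid genes, NFE2 serves both globin enhancers and platelet release, GFI1B and BCL11A repress transcription, and MYB sustains proliferating progenitors. K562 cells hold this circuit in a form that expresses embryonic and fetal globins.

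Promoter sequences are shown for the members whose start region holds a GATA word, since GATA factors are known to bind their own and each other's genes. The RefSeq table of GRCh38.p14 held 15 promoters for 8 of the 10 members, each of 300 bases with 250 before and 50 after a transcript start. LMO2 and NFE2 had no entry. The GATA words searched on both strands were TGATAA, then AGATAA, then TGATAG, and finally AGATAG, and 25.0% of all 35116 promoters of the same length held at least 1 of them. Such a word stood in 4 of the member promoters, that of KLF1, 1 of the 2 of TAL1 and both of GFI1B, which are printed 5′ to 3′ along the gene's strand with the GATA words of either strand in capitals.
KLF1, chr19:12887152-12887451, minus strand: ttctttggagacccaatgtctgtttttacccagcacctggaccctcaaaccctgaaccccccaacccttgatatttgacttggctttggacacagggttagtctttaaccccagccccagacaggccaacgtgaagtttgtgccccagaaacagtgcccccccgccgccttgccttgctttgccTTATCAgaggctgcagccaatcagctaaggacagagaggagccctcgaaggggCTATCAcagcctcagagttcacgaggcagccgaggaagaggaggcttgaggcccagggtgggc
GFI1B, chr9:132945281-132945580, plus strand: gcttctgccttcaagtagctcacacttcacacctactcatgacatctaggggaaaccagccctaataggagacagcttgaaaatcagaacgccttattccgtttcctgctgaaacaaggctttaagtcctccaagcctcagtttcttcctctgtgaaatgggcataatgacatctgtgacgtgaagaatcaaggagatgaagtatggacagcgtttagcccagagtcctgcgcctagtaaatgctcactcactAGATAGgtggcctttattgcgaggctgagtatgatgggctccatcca
GFI1B, chr9:132978444-132978743, plus strand: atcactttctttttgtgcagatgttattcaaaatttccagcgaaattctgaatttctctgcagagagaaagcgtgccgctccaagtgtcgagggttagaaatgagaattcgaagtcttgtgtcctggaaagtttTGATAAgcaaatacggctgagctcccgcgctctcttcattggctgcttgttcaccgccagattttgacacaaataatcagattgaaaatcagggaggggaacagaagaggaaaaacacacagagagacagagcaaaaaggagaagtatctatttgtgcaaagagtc
TAL1, chr1:47232286-47232585, minus strand: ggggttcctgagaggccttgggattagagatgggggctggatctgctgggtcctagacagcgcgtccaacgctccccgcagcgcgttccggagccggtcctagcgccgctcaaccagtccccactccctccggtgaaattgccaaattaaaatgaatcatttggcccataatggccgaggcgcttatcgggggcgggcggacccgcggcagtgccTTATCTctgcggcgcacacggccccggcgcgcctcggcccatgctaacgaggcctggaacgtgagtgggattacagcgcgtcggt
In KLF1 the words began at -66 and -13, counted from the start site. The words of GFI1B began at +4 in the first promoter and at -116 in the second, and that of TAL1 began at -35. The start site of this TAL1 window lies upstream of the TAL1 gene as placed by GENCODE 29. CACCC, a word bound by KLF and related factors, was found on either strand in 10 of the 15 member windows, belonging to 6 members, and in 59.9% of all promoters. The word TGAGTCA, known to be bound by NFE2 with a small MAF protein, was in none of the 15 windows and in 4.95% of all promoters. The MYB and ZFPM1 promoters held none of the 4 GATA words in this window. These matches describe letters only.

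Library totals of gene counts ran from 35613283 to 36754725. Counts were scaled to normalized CPM (counts scaled to library size) with edgeR's TMM method, and tested by edgeR's quasi-likelihood method over the 15095 genes that passed its filter on low counts. A gene was called at a Benjamini-Hochberg adjusted p under 0.05 over all tested genes, and a second threshold asked for a change above 2-fold as well. The labelled cell line was checked against defining markers. All 12 erythroid markers, KLF1 among them, had a mean of at least 1 FPKM, a unit of counts scaled to gene length and library total. Of the 7 granulocytic and monocytic markers, SPI1 and LYZ had at least 1 FPKM, and MPO had 0 to 10 counts per library. In bulk RNA a smaller number of cells of a type cannot be told apart from less RNA per cell.

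Hyperoside-treated K562 cells held more mRNA of most of these factors, while the mRNA of GATA1 and TAL1 showed little difference. Of the 9 members that passed the filter, 7 were called higher and 0 were called lower, with GFI1B, KLF1, LMO2, NFE2, MYB, ZFPM1 and GATA2 higher in that order of log2 fold change. In the same edgeR fit 0 members were lower at an unadjusted p under 0.05, and DESeq2 called 0 lower. Among all tested genes 22.1% were called higher and 23.2% lower, so 45.3% were called in either direction. These shares are also the background for the counts of the related lists below. In each of the 7 called members every hyperoside library lay above every control library, a pattern found in 27.1% of all tested genes, while 54.4% of tested genes had groups that did not overlap in either direction. The median log2 fold change was 0.83 over the 9 tested members and 0.003 over all tested genes. GFI1B alone passed the 2-fold threshold, which 6.43% of all tested genes passed in the upward direction. BCL11A did not pass the filter.

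**Figure D1:**
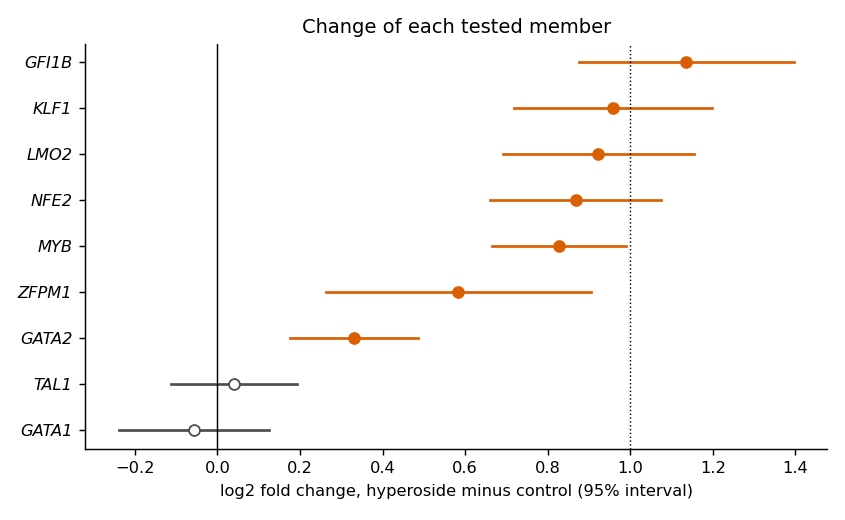
The log2 fold change of each of the 9 tested members (x axis, hyperoside minus control) is shown with its 95% interval as a line. Filled orange points were called higher and open grey points were not called, and the dotted line marks a 2-fold change. The 7 called genes lie between 0.33 for GATA2 and 1.14 for GFI1B, and the intervals of GATA1 and TAL1 span 0.

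GATA1, the master regulator of both lineages, is a plus-strand gene at 48786554 to 48794311 of chromosome X (GRCh38). It had 161.9, 130.3 and 130.2 CPM in control replicates 1, 2 and 3, and 129.2, 143.0 and 133.8 CPM in hyperoside replicates 1, 2 and 3. Control replicate 1 was the highest of the 6 libraries, and the groups overlapped. The log2 fold change was -0.06 (SE 0.09) with an adjusted p of 0.619 from edgeR. The 95% interval of its fold change ran from 0.847 to 1.09. Without control replicate 1 the log2 fold change was 0.06, with an edgeR adjusted p of 0.495, so the sign of this small difference rested on that library.

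GATA2, the GATA factor of stem and progenitor cells, is a minus-strand gene at 128479427 to 128493185 of chromosome 3. Its level was 140.9, 125.9 and 128.6 CPM in the control libraries and 161.6, 174.3 and 161.2 CPM in the hyperoside libraries, in order of replicate. All hyperoside libraries were above the highest control library. The rise was the smallest among the called members, 1.26-fold with a 95% interval from 1.13 to 1.40, and its adjusted p was 0.00134 from edgeR.

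The ratio of GATA2 to GATA1, taken per length from FPKM within each library and therefore free of the scaling between libraries, was 0.337, 0.374 and 0.383 in the control group. It was 0.485, 0.472 and 0.467 in the hyperoside group, and the groups did not overlap. Per length, GATA1 was thus the higher of the pair in every library. By CPM, which is not scaled to length, GATA2 was below GATA1 in each control library and above it in each hyperoside library. The mean log2 ratio was -1.46 ± 0.10 for control and -1.08 ± 0.03 for hyperoside (SD over 3 libraries). The exact permutation test of this 0.38 difference, two-sided, gave p = 0.1, which is as low as 3 against 3 libraries can reach.

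**Figure D2:**
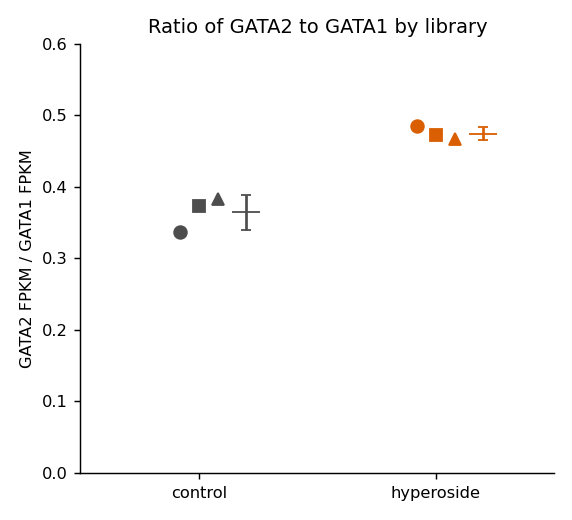
The ratio of GATA2 FPKM to GATA1 FPKM (y axis, linear, from 0) is drawn for each of the 6 libraries, with the mean and SD of each group beside the points. Control points span 0.337 to 0.383, and hyperoside points span 0.467 to 0.485.

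ZFPM1, the FOG1 cofactor that binds GATA1 through its amino-terminal zinc finger, is a plus-strand gene at 88453317 to 88537016 of chromosome 16. It was the lowest of the tested members, with 14.9, 10.7 and 10.6 CPM in the control libraries and 16.6, 22.0 and 15.5 CPM in the hyperoside libraries. The lowest hyperoside library was only slightly above the highest control library. The log2 fold change was 0.58 (SE 0.15) with an adjusted p of 0.00471 from edgeR. Without hyperoside replicate 2 the adjusted p was 0.05001 and the log2 fold change 0.42, so the call was lost without that library, and it was also lost on the log2(FPKM + 1) scale without a filter, with an adjusted p of 0.0897 from limma.

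TAL1, the basic helix-loop-helix protein of the complex, is a minus-strand gene at 47216290 to 47232220 of chromosome 1, with exons that overlap those of AL135960.1 on the other strand. It had 153.4, 148.1 and 143.9 CPM in the control libraries and 151.8, 162.9 and 143.5 CPM in the hyperoside libraries. The 6 values were close to each other and the groups overlapped. The log2 fold change was 0.04 (SE 0.07, adjusted p 0.679 from edgeR), with a 95% interval of the fold change from 0.925 to 1.14. Without hyperoside replicate 2 it was -0.01 with an edgeR adjusted p of 0.949.

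LMO2, the LIM-only bridge between TAL1 and GATA1, is a minus-strand gene at 33858576 to 33892289 of chromosome 11. Its level was 21.5, 16.5 and 20.9 CPM in the control libraries and 34.3, 38.5 and 38.8 CPM in the hyperoside libraries. The highest control library was well below the lowest hyperoside library. LMO2 mRNA rose 1.90-fold, with a 95% interval from 1.62 to 2.23 and an edgeR adjusted p of 2.6e-06. TAL1, its partner in the complex, stood at 1.03-fold, and the difference between both genes was not tested.

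The 13 listed partners of this complex were all tested, and 5 (38.5%) were called higher and 3 (23.1%) lower. The list had a median log2 fold change of 0.09. Over the 15 alternatives 4 to 5 were called higher and 1 to 3 lower. CBFA2T3, the ETO2 corepressor that binds TAL1 complexes, rose from 29.1 to 79.5 CPM, a log2 fold change of 1.45 (SE 0.09, adjusted p 2.17e-09 from edgeR). LYL1, the closest relative of TAL1, had a log2 fold change of 0.92 and TCF4, an E-protein, one of 0.66. SSBP4 was lower, with a log2 fold change of -0.41. TCF3 and SSBP2 had log2 fold changes of -0.22 and -0.31, and their calls were lost without hyperoside replicate 2, hyperoside replicate 3 or control replicate 2, and that of TCF3 also without control replicate 1 or hyperoside replicate 1. LDB1, the dimerizing scaffold, was not called, at -0.13.

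**Figure D3:**
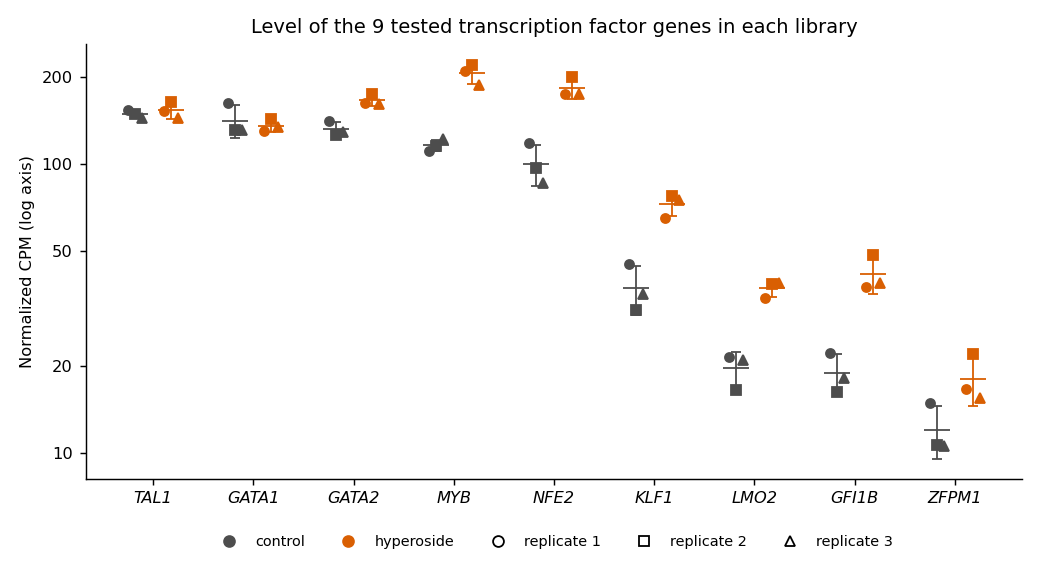
The normalized CPM (y axis, log scale) of the 9 tested members is drawn for each library, grey for control and orange for hyperoside, with the symbol giving the replicate and the bars the mean and SD of 3 libraries. KLF1, LMO2, NFE2, GFI1B, MYB, GATA2 and ZFPM1 show separate groups, ZFPM1 only narrowly, whereas GATA1 and TAL1 overlap.

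KLF1, the erythroid activator of the CACCC box, is a minus-strand gene at 12884422 to 12887199 of chromosome 19. It had 45.1, 31.2 and 35.5 CPM in control replicates 1, 2 and 3 and 65.0, 77.3 and 74.8 CPM in the hyperoside replicates. Every hyperoside library exceeded the highest control library by a wide margin. The rise was 1.94-fold, with a 95% interval from 1.65 to 2.29 and an edgeR adjusted p of 2.64e-06. Its log2 fold change of 0.96 was just under the 2-fold threshold and became 1.12 without control replicate 1, the library with the highest control value.

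NFE2, the large subunit of the NF-E2 dimer, is a minus-strand gene at 54292111 to 54301121 of chromosome 12. Its level was 117.6, 96.7 and 85.7 CPM in the control libraries and 174.4, 199.5 and 173.6 CPM in the hyperoside libraries. The groups were clearly apart although the control libraries varied. NFE2 rose 1.82-fold, with a 95% interval from 1.58 to 2.11 and an edgeR adjusted p of 1.49e-06.

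NFE2 binds DNA only together with a small MAF protein, and the CNC factors NFE2L1, NFE2L2 and NFE2L3 and the BACH repressors use the same partners. Of these 8 partner and competitor genes, all tested, 1 (12.5%) was called higher and 5 (62.5%) lower. Their median log2 fold change was -0.38. The small MAF genes had log2 fold changes of -0.59 for MAFG (called), -0.42 for MAFK (called) and -0.35 for MAFF (not called). The ubiquitous CNC genes NFE2L1 and NFE2L2 fell by 0.43 and 0.52 on the log2 scale, and NFE2L3 by 0.35. BACH2 was the one called higher, at 0.47. NFE2, which is not one of these 8 genes, had a positive log2 fold change, as did 2 of the 8.

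GFI1B, the zinc finger repressor required for red cell and platelet formation, is a plus-strand gene at 132944000 to 132991687 of chromosome 9. It had 22.2, 16.2 and 18.2 CPM in the control libraries and 37.5, 48.4 and 38.7 CPM in the hyperoside libraries. Each hyperoside value was well above each control value. GFI1B rose 2.20-fold, with a 95% interval from 1.84 to 2.63 and an edgeR adjusted p of 9.21e-07. By GENCODE 29 its exons overlap those of TSC1, which is read from the other strand, and no source used here says whether reads were assigned by strand. TSC1 itself went from 37.7 CPM to 50.3 CPM with hyperoside, a log2 fold change of 0.42, and its part in the GFI1B counts was not tested.

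GFI1B represses through KDM1A (LSD1) and RCOR1, and ZFPM1 and BCL11A through the NuRD complex. All 20 listed corepressor subunits were tested, and 4 were called higher and 4 lower, and the list had a median log2 fold change of 0.06. KDM1A itself was not called, at 0.07, whereas RCOR1 was lower, at -0.34. Among NuRD subunits MBD3 had the largest rise in the list, with a log2 fold change of 0.89 (SE 0.09, adjusted p 6.4e-07 from edgeR), and the ATPase genes moved in opposite directions, CHD4 by 0.34 and CHD3 by -0.37. RBBP7, a histone-binding subunit, was lower, at -0.36.

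BCL11A, the repressor of fetal globin in adult red cells, is a minus-strand gene at 60450520 to 60555154 of chromosome 2. It had 1, 1 and 3 counts in the control libraries and 0, 1 and 1 in the hyperoside libraries. No library held more than 3 counts, which is what a count of 0 still allows by counting error alone, and no difference was detectable at this depth. BCL11A was not called in either fit made without a filter on low values, with adjusted p of 0.664 from edgeR and 0.78 from limma. No fold change is given.

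Other regulators of the fetal to adult globin switch gave 6 genes (42.9%) called higher and 0 lower among 14 tested. The list median was 0.14 on the log2 scale. SOX6, a partner of BCL11A in that switch, rose from 11.5 to 22.5 CPM, a log2 fold change of 0.97 (SE 0.12, adjusted p 3.52e-06 from edgeR). NFIX had a log2 fold change of 0.84 and IGF2BP1, an RNA-binding protein of the fetal program, one of 0.62. No gene of this list was lower at the threshold in any of the 15 alternatives.

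MYB, the factor of cycling progenitors, is a plus-strand gene at 135181315 to 135219173 of chromosome 6, with exons that overlap those of MYB-AS1 on the other strand. It had 110.3, 115.5 and 121.2 CPM in the control libraries and 208.7, 219.4 and 187.6 CPM in the hyperoside libraries. The control libraries were close together, and all hyperoside libraries lay far above them. MYB rose 1.77-fold, with a 95% interval from 1.59 to 1.98, and had the smallest adjusted p of the members, 1.5e-07 from edgeR. Its relatives MYBL2, at 167.6 and 180.6 CPM, and MYBL1 were not called, with log2 fold changes of 0.11 and 0.26.

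On the FPKM scale, which allows levels of different genes to be set side by side, GATA1 was the most abundant member in the control group at 94.3 ± 9.97 FPKM, followed by NFE2 at 48.99 ± 6.71, GATA2 at 34.3 ± 1.37 and MYB at 30.9 ± 2.18 (each ± SD of 3 libraries). KLF1 had 22.6 ± 3.86, TAL1 19.6 ± 0.17, LMO2 5.83 ± 0.79, GFI1B 5.67 ± 0.81 and ZFPM1 1.20 ± 0.22 FPKM. The neighbours GATA2 and MYB, KLF1 and TAL1, and LMO2 and GFI1B overlapped between libraries in the control group. In the hyperoside group NFE2, at 92.7 ± 7.58 FPKM, overlapped with GATA1, at 93.98 ± 4.71. MYB, at 56.7 ± 4.76 FPKM, was then above GATA2, at 44.6 ± 2.06, in every library of that group. KLF1, at 45.6 ± 3.85 FPKM, was level with GATA2 and above TAL1, at 20.9 ± 1.41. Among all tested genes GATA1 ranked 559 of 15095 by mean FPKM, and ZFPM1 ranked 10393. These orders depend on the gene lengths behind FPKM, which the sources used here do not give. By mean CPM, which is not scaled to length, TAL1 was above GATA1 in the control group, at 148.5 and 140.8, with overlapping libraries. In the hyperoside group MYB, NFE2, GATA2 and TAL1, at 205.2, 182.5, 165.7 and 152.7 CPM, were above GATA1, at 135.3.

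**Figure D4:**
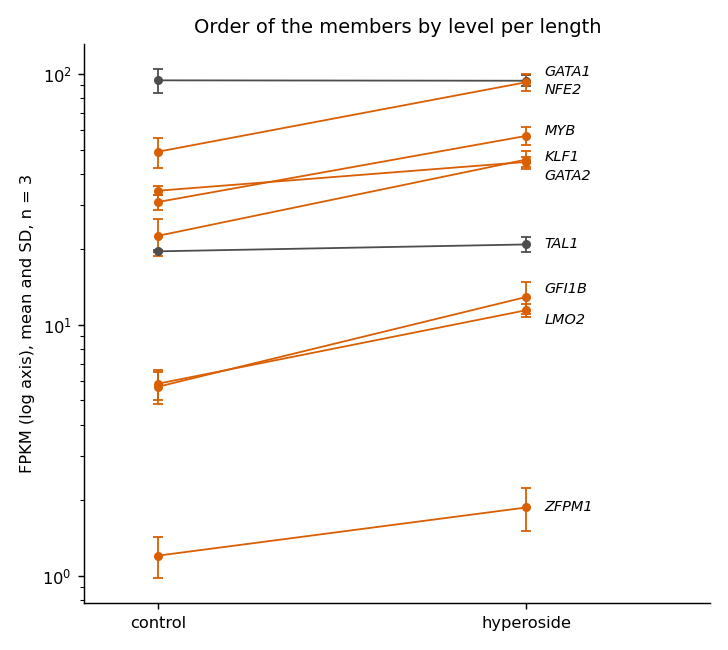
Mean FPKM (y axis, log scale) of each tested member in the control group (left) and the hyperoside group (right), with SD over 3 libraries. Orange lines are the members called higher and grey lines GATA1 and TAL1, and NFE2 reaches the level of GATA1 on the right.

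Paralogs of the members gave 14 tested genes, of which 3 (21.4%) were called higher and 5 (35.7%) lower. The lower ones include NFE2L1, NFE2L2 and NFE2L3, which were also counted above beside NFE2. LYL1, at 47.3 FPKM without and 92.6 with hyperoside, was above its relative TAL1 on this per-length scale in both groups. ZFPM2 (FOG2) rose from 1.35 to 2.68 FPKM, beside ZFPM1 at 1.20 and 1.87. GFI1, the myeloid counterpart of GFI1B, had 65, 106 and 86 counts in the control libraries and 274, 278 and 215 in the hyperoside libraries, a log2 fold change of 1.53 (SE 0.21, adjusted p 1.47e-05 from edgeR). GATA6, an endodermal GATA factor, went the other way at a low level, with 35, 50 and 28 counts in the control libraries and 3, 1 and 1 in the hyperoside libraries. LMO4 was not called, at -0.04.

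Of 36 listed erythroid genes that GATA1 and KLF1 are known to activate, all tested, 9 (25.0%) were called higher and 11 (30.6%) lower. These shares stood near the 22.1% higher and 23.2% lower of all tested genes, and the list median was -0.05 on the log2 scale. EPOR, the erythropoietin receptor gene, and ERMAP had log2 fold changes of 1.22 and 1.20, and ALAS2, the first enzyme of erythroid heme synthesis, one of 0.48. The fetal globin genes HBG1 and HBG2 fell by 0.87 and 0.80 on the log2 scale, and these near-identical copies can share reads. DMTN, a red cell membrane skeleton gene, fell by 0.77. Among the erythroid markers used to check the cell line, the 6 globin genes summed to 7706 to 9586 FPKM per control library and 5469 to 6654 per hyperoside library, which was 97.1% to 97.6% of the sum of all 12 markers in the control group. The other 6, KLF1 among them, summed to 222.7 to 240.1 FPKM without and 340.8 to 384.6 with hyperoside.

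Of 11 listed genes that GATA1 is known to repress, 8 were tested, with 3 (37.5%) called higher and 2 (25.0%) lower. KIT, the stem cell factor receptor, had 874, 1283 and 1017 counts in the control libraries and 4857, 4276 and 4423 in the hyperoside libraries, a log2 fold change of 2.05 (SE 0.11, adjusted p 2.83e-10 from edgeR). CCND2, a cyclin gene, was lower and went from 91.4 to 45.8 CPM, and MEIS1 was lower with a log2 fold change of -1.03. SPI1, the myeloid factor that antagonizes GATA1, was higher, at 0.45.

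Megakaryocytic and platelet genes gave 7 genes (63.6%) called higher and 1 (9.09%) lower among 11 tested. The list median was 0.49 on the log2 scale. TUBB1, the platelet tubulin gene, PLEK and the integrin gene ITGB3 had log2 fold changes of 1.61, 1.97 and 1.57, from control levels of 2.33, 1.12 and 0.762 FPKM. ITGA2B, the partner of ITGB3, had a log2 fold change of -0.36 and was called lower, a call lost in 7 of 15 alternatives, among them those without control replicate 1, control replicate 2, hyperoside replicate 1 or hyperoside replicate 2. Among other transcription factors of this lineage 2 of 8 tested genes were higher, ETV6 at 0.65 and RUNX1 at 0.37, and MEIS1 was lower. FLI1 had 0 to 6 counts in the control libraries and 2 to 10 in the hyperoside libraries and did not pass the filter.

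Markers of other blood lineages were set beside these counts. Of 14 granulocytic and monocytic markers, 11 were tested, and 5 (45.5%) were called higher and 1 (9.09%) lower. The summed level of the 14 was 103.6 to 111.4 FPKM in the control libraries and 121.9 to 135.8 in the hyperoside libraries. CEBPE, a late granulocytic factor, had a log2 fold change of 3.73 from a control level of 0.808 FPKM, and CEBPB was lower, at -0.71. Of 10 lymphoid markers 3 were tested and 1, CD3D, was called higher at 0.29, a call lost without control replicate 3, hyperoside replicate 1 or hyperoside replicate 3, and PAX5 had 0 to 4 counts per library. The part of these markers in the members' values was not tested.

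**Figure D5:**
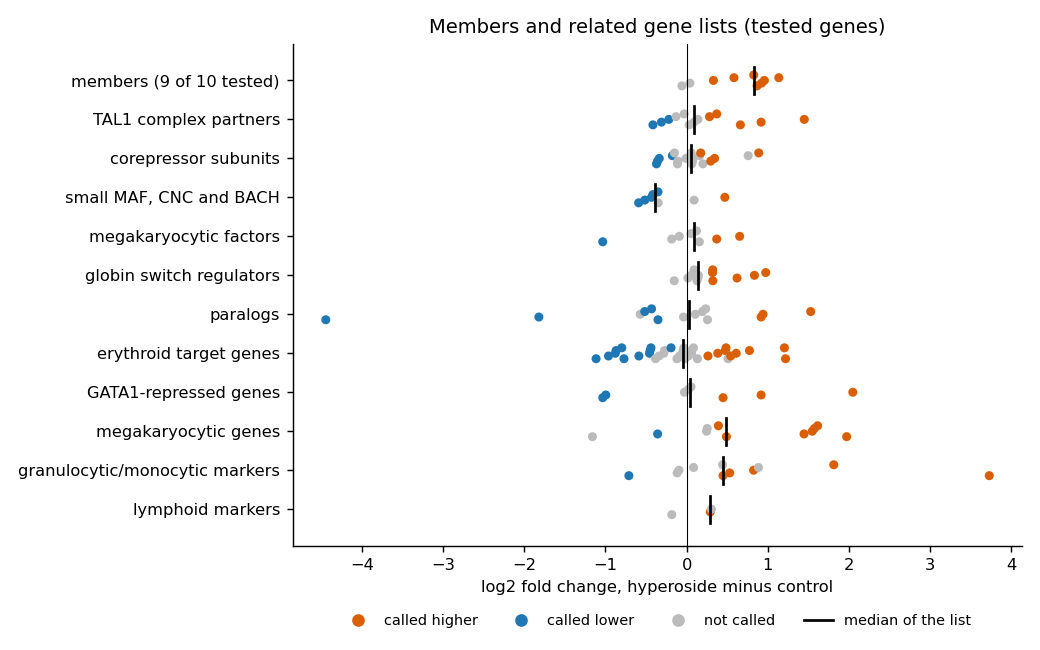
The log2 fold change (x axis, hyperoside minus control) of every tested gene of the members and of the 11 related lists is drawn as a point, orange where called higher, blue where called lower and grey otherwise, with a black bar at the median of each list. The members have a median of 0.83, and the small MAF, CNC and BACH genes one of -0.38.

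For each member called with a change above 1.5-fold, the genes with the most similar profile were found by the Euclidean distance between centred log2 CPM values over the 6 libraries. MYB was closest to CUL1 and VAC14, at distances of 0.117 and 0.118. KLF1 was closest to DHRS13 and SFXN2, at 0.188 and 0.197, and LMO2 to TRIM63 and SETD9, at 0.113 and 0.141. NFE2 was closest to LOC105374382 and ARSB, at 0.113 and 0.120, and GFI1B to ZBTB42 and LINC01061, at 0.152 and 0.212. LOC105374382 was itself not called and had only 5 to 14 counts per library, so its distance rests on few counts.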

How the data were processed

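Total RNA of K562 cells was extracted with Trizol, and libraries were sequenced on an Illumina platform. The authors deposited raw counts per gene and FPKM values, both per library and with no pooling, and the submitters' processing notes name fastp, HISAT2, HTSeq and hg38 without versions. The annotation and the use of strand are not given in the sources used here. DESeq, named in the study's methods, was replaced by edgeR. Labels gave each library's condition and replicate, and the study's text gave the dose.

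Counts were filtered with filterByExpr (minimum count 10, minimum total 15), normalized by TMM and tested with edgeR 4.0.16 in R 4.3.3 on the condition alone. The SE is the log2 fold change divided by the square root of F, and intervals use the t distribution of the fit. FPKM served for levels between genes and for the GATA2 to GATA1 ratio. DESeq2 1.42.0, limma 3.58.1, other scaling, no filter, FPKM scales, blocking on replicate number and leaving out single libraries were alternatives. The model fits were tested on simulated data. Positions are from GENCODE 29 on GRCh38 and promoters from RefSeq.

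The members and the 11 related lists were chosen with earlier results of these data known. The related lists overlap, and genes such as LYL1, MEIS1, RUNX1, SPI1 and the CNC genes count in several of them. Genes named from a list are up to 3 called higher and 3 called lower, by lowest adjusted p, paralogs with a mean of at least 1 FPKM, genes whose exons overlap a member, the closest profiles, and ALAS2, HBG1, HBG2 and KIT. Others (LDB1, MAFF, MAFK, KDM1A, MYBL1, FLI1, MPO and PAX5) were named for their role or the check of the cell line after their values were seen. Some genes that the rule or the marker lists would name are not reported here. Other columns of the tables hold gene annotation and were not used.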

Additional observations from a re-analysis of the deposited data

How the results depend on the processing

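Over the 15 alternatives run on each tested member, 6 to 7 members were called higher and 0 were called lower. GATA2, KLF1, LMO2, NFE2, GFI1B and MYB stayed higher and called in all 15. ZFPM1 lost its call in 2, as given above. The number of members past 2-fold was 1 in the reported fit, 2 on library totals without TMM and 2 with limma on log2(FPKM + 0.1). It ran from 1 to 3 with a library left out. KLF1 and NFE2 joined GFI1B without control replicate 1, and KLF1 joined it without hyperoside replicate 1. With 1 library left out, the log2 fold change of GATA1 ran from -0.11 to 0.06 and that of TAL1 from -0.01 to 0.10. Both changed sign there, GATA1 without control replicate 1 (0.058) and TAL1 without hyperoside replicate 2 (-0.0081), and neither was called in any alternative. The GATA2 to GATA1 difference was 0.37 with log2(FPKM + 1) and 0.33 to 0.42 with a library left out. The fit with the replicate block called 7 members higher and 0 lower and changed no call of a member, and equally numbered libraries did not deviate together (correlations -0.08, -0.03 and -0.03). BCL11A, with too few counts for the filter, was tested only in the 2 fits without one and was not called. Of the other genes named, TCF3 lost its call in 10 of 15 alternatives, SSBP2 and ITGA2B in 7 each, CD3D in 3 and BACH2 in 2, and KDM1A, MAFF and MYBL2 gained one in 1, 1 and 2.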

Other observations

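Within each group 1 library stood highest for nearly all members. Control replicate 1 was the highest control library in 8 of the 9 tested members, with MYB as the exception, against 42.1% of all tested genes. Hyperoside replicate 2 was the highest hyperoside library in 8 of the 9, with LMO2 as the exception, against 34.5% of all tested genes. The members share these libraries and are not independent, and the pattern, seen after the values were known, was not tested.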
